A study of Mus musculus with 30 samples.

Results

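The effect of losing the retinoblastoma gene in the crypts of the mouse small intestine was measured on 10 of the 30 arrays of the series: 5 of Rb KO crypts and 5 of control crypts, chosen by the labels' titles, with every gene considered. The mice were 2 months old, and tissue was taken 5 days after the gene was deleted. The series has 3 genotypes (control, Rb KO and Rb/Myc DKO, in which Myc was ablated together with Rb), each with 5 arrays of villi and 5 of crypts. Ah-cre, an inducible Cre recombinase specific to the intestine per the labels, carried out the deletion. Control mice are named only as controls, so whether they carried the Cre, floxed alleles or the inducing treatment is not given in the sources used here, and neither is the share of crypt cells that recombined. RNA of a whole crypt preparation was hybridised, so fewer cells of a type and less RNA per cell cannot be told apart. No label states whether the 5 replicates of a group came from different mice, and p-values then measure only the spread between these arrays.

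Rb1 encodes the retinoblastoma protein, one of the pocket proteins, with p107 (Rbl1) and p130 (Rbl2). Pocket proteins bind E2F transcription factors and hold down genes needed to enter S phase. Cyclin D with Cdk4 or Cdk6, then cyclin E with Cdk2, phosphorylate them and release E2F. In the intestine, crypts hold the stem cells and the rapidly dividing progenitors, together with Paneth cells, while villi carry the differentiated epithelium. Crypts therefore contain many cycling cells, in which the pocket proteins are phosphorylated, before any deletion.

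Deposited values are log2 levels. Array medians lay between 6.67 and 6.73 in crypts, and arrays within a group correlated with each other between 0.9905 and 0.9973. The defining crypt genes were present in control crypts: Lyz1 and Mmp7 of Paneth cells averaged 15.03 ± 0.03 and 12.55 ± 0.27 (log2, SD, n = 5), and Olfm4 and Lgr5 of stem cells 13.91 ± 0.17 and 9.11 ± 0.49, against a level of 6.201 below which genes were not tested. Enterocyte genes were present too, with Alpi (intestinal alkaline phosphatase) at 13.91 ± 0.36. Xist was near 13.5 on controls 1 and 4 and Rb KO 3 and between 6.94 and 7.53 on the other crypt arrays of these groups, so the sexes were mixed in both. The 3' minus 5' difference of the Gapdh probe sets lay between -0.298 and -0.244 in controls and between -0.279 and -0.254 in Rb KO. Control 1 stood apart: among the 1562 genes called below, 163 had overlapping groups because of that array alone, against 21 to 94 for each other array.

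Rb1 itself was read first, as a check of the labels. Its levels were 9.32, 9.63, 10.49, 10.37 and 9.76 in control crypts and 8.20, 8.14, 8.29, 8.27 and 8.30 in Rb KO crypts. Every Rb KO array lay below every control array, and Rb1 fell by 1.68 ± 0.18 on the log2 scale (limma, SE, 5 arrays against 5, adjusted p = 2.6e-05), 3.19-fold. Rb/Myc DKO crypts were at 8.30 ± 0.24. The second Rb1 probe set was at 4.65 in controls and 4.74 in Rb KO, below the level of 6.201. Where either probe set lies relative to the deleted part is not given in the sources used here. Of the 20 nearest genes tested, 10 on each side of Rb1, only Lpar6, which lies within an intron of Rb1, was called, with a fall of 0.26 (adjusted p = 0.042). That call was lost without controls 1 and 4 (-0.15, adjusted p = 0.226). Myc, which was not deleted in Rb KO mice, was at 10.51 ± 0.23 in control and 10.48 ± 0.41 in Rb KO crypts (adjusted p = 0.92), and at 8.88 ± 0.13 in Rb/Myc DKO crypts.

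Across 12736 genes tested, 1562 (12.3%) differed at an adjusted p of 0.05. Of these, 1102 (8.65% of all genes tested) were higher and 460 (3.61%) were lower in Rb KO crypts. Counts of list members called, given below, are to be read against these shares. Rises made up 70.6% of the calls, and 59.3% after quantile normalization. The changes were small: the median difference was 0.326 among genes called higher and -0.305 among genes called lower (log2), and 20 rises and 18 falls reached 2-fold. The median over all genes tested was 0.00294. All 5 Rb KO arrays lay above all 5 controls in 7.62% of genes and below them in 3.04%. Leaving out Rb KO 4 and 5 brought the calls to 874, of which 806 were among the 1562.

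Cell cycle genes were among the 15 largest rises whose groups did not overlap. Enpp3, an ectonucleotidase of the cell surface, rose by 1.71 ± 0.24. Cyclins E2 and E1 rose by 1.61 ± 0.13 and 1.44 ± 0.14 (adjusted p = 3e-06 and 7.4e-06). Myl7, a myosin light chain of the heart atria, rose by 1.5 ± 0.27. Tcf19, a nuclear protein induced at the G1/S transition, rose by 1.26 ± 0.08, from 10 ± 0.20 to 11.26 ± 0.07 (adjusted p = 4.1e-07). Dusp1, a phosphatase that inactivates MAP kinases, rose by 1.20, the zinc finger gene Zfp874a by 1.14, Apoc3 (apolipoprotein C-III) by 1.09, the protocadherin Pcdh19 by 1.08, Cdkn1a by 1.06, the carboxylesterase Ces1g by 1.04, the condensin II subunit Ncapg2 by 1.03, the lipid acyltransferase Mboat1 by 1.03, Hes2 of the hairy and enhancer of split family by 1.03 and E2f7 by 1.01. Apoc3 was no longer called without Rb KO 4 and 5 (0.96, adjusted p = 0.0986). Zfp874a and Hes2 averaged 5.55 and 5.60 in control crypts and 6.68 and 6.63 in Rb KO crypts. Their control means lay below the filter level of 6.201, and each gene passed with a mean of 6.276 over all crypt arrays. The sizes of these rises therefore depend on control levels too low to be tested on their own.

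None of the other genes among the 15 largest falls was a member of a cell cycle list. Gsdmc2, a gasdermin of the intestinal epithelium, had levels of 6.94, 9.55, 9.13, 7.46 and 9.08 in controls and 5.50, 4.86, 6.06, 5.14 and 5.38 in Rb KO, 8.25-fold lower on average (adjusted p = 0.00039). The groups were apart, and controls 1 and 4 were the lowest controls. All Rb KO values of Gsdmc2 lay below the filter level of 6.201, which its mean over all crypt arrays (6.35) narrowly passed. The size of its fall therefore depends on Rb KO levels too low to be tested on their own. The serine protease Prss23 fell by 1.62, the peptide transporter Slc15a2 by 1.60, Gcg (preproglucagon) by 1.37, Afp (alpha-fetoprotein) by 1.23, Itih5 by 1.18, C1qtnf12 by 1.14, the small GTPase Rab30 by 1.06, Tfpi (tissue factor pathway inhibitor) by 1.03, the acyl-CoA thioesterase Acot1 by 1.02, Crp (C-reactive protein) by 1.02, Ghrl (ghrelin) by 0.98, Zfp949 by 0.96 and Nnt, the mitochondrial transhydrogenase, by 0.96. Slc15a2, Tfpi and Crp lost their calls without Rb KO 4 and 5 (adjusted p = 0.0599, 0.0761 and 0.0606), as did Slc15a2 without controls 1 and 4 (0.0554). Crp and Rab30 averaged 5.89 and 6.10 in Rb KO crypts, also below 6.201.

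The E2F and pocket protein list had 20 measured members, of which 9 were called higher and 1, Rb1, lower. Its median difference was 0.24, against 0.00294 over all genes. The activators E2f1 and E2f3 rose by 0.69 ± 0.08 (adjusted p = 4.1e-05) and 0.29 ± 0.06 (0.0029), while E2f2 differed by 0.34 ± 0.11 without passing the threshold (0.056). The repressors E2f7 and E2f8, which are themselves E2F targets and dampen the same genes, rose by 1.01 ± 0.12 and 0.61 ± 0.09. E2f7 was at 8.51, 7.69, 8.28, 8.25 and 8.23 in controls and at 9.16, 9.25, 9.36, 9.19 and 9.07 in Rb KO, with no overlap. Rbl1, the pocket protein p107, went from 9.68, 9.69, 9.81, 9.73 and 9.75 to 10.23, 10.27, 10.31, 10.31 and 10.27. Its groups were apart, with a rise of 0.55 ± 0.04 (adjusted p = 3e-06). Rbl2, the pocket protein p130 of resting cells, differed by -0.13 ± 0.08 (adjusted p = 0.33). Tfdp1, the partner subunit of E2F, rose by 0.33. The pocket-protein-binding repressors E2f4 and E2f5 differed by 0.01 and -0.11 without a call, E2f6 by 0.15 (adjusted p = 0.095). E2f5 has 3 probe sets, and the other 2 were higher in a fit over all probe sets (by 0.37 and 0.39, adjusted p = 0.0059 and 0.0013).

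**Figure D1:**
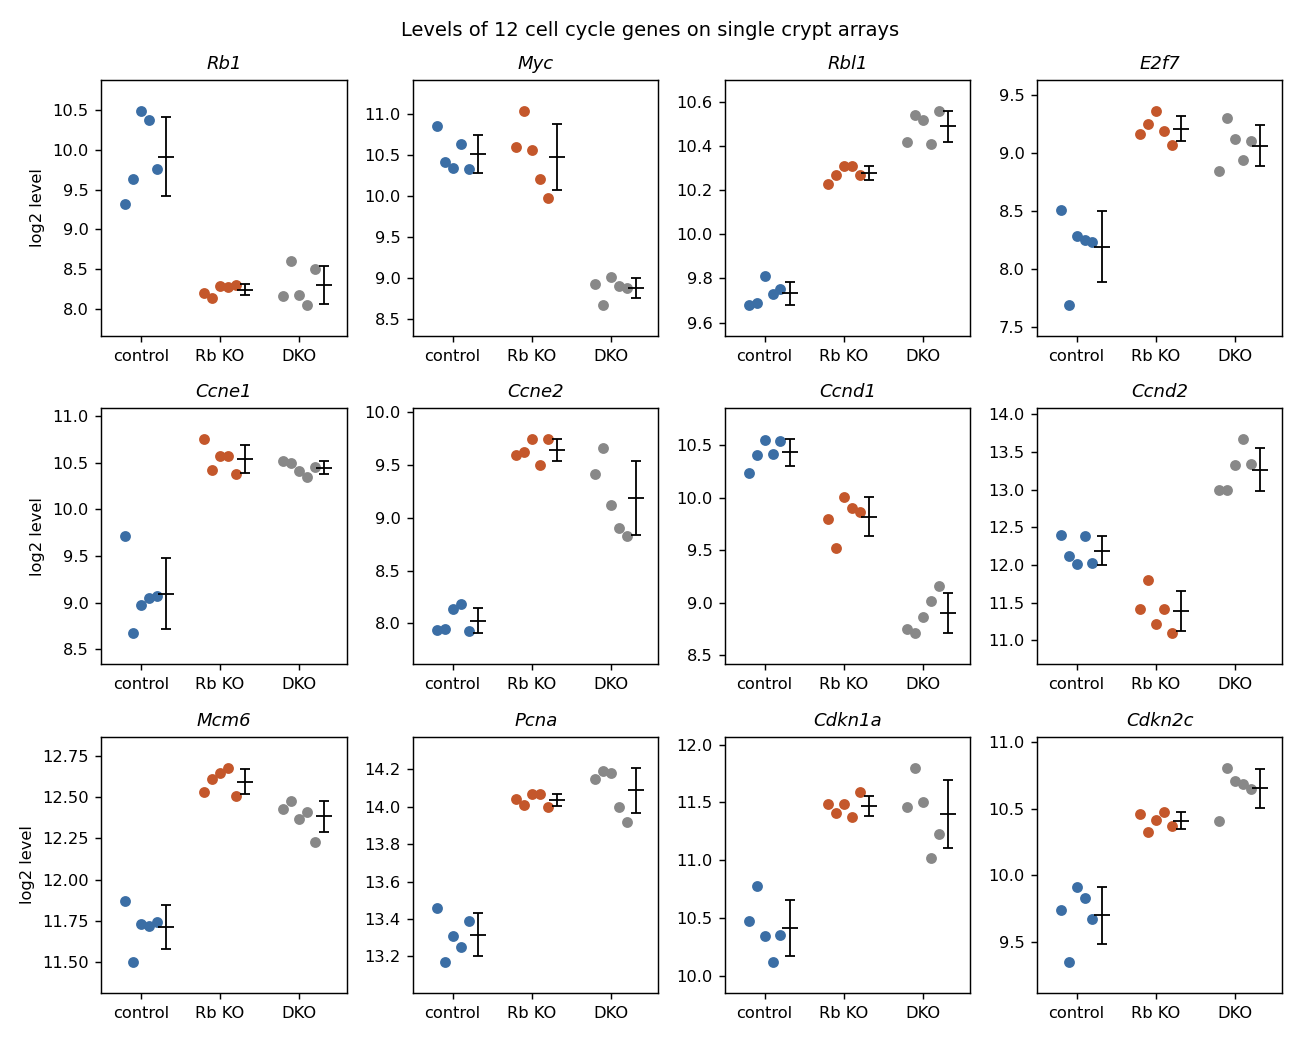
Log2 level of 12 cell cycle genes on each crypt array of the control, Rb KO and Rb/Myc DKO (DKO) groups, 5 arrays each, with the mean and SD as black bars and a separate vertical scale for each gene that does not start at 0. Of the genes plotted, Myc alone has overlapping control and Rb KO arrays, and Ccnd2 lies above the controls in DKO crypts.

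Cyclins and their kinases did not all move the same way. Of 22 measured members, 8 were called higher and 3 lower. Ccne1 was at 9.71, 8.67, 8.97, 9.05 and 9.07 in controls and at 10.75, 10.42, 10.57, 10.57 and 10.38 in Rb KO, 2.72-fold higher. Ccne2 was at 7.94, 7.95, 8.14, 8.18 and 7.93 against 9.59, 9.62, 9.74, 9.50 and 9.74, 3.05-fold higher. Both genes encode E-type cyclins and neither overlapped between groups. Cdk2, their kinase, rose by 0.60 ± 0.07. Cdk1 of mitosis rose by 0.47 ± 0.08, Cdc25b, a phosphatase that activates it, by 0.71, and Skp2, which targets p27 for destruction, by 0.57. Cyclin A2 (Ccna2) and cyclin B2 (Ccnb2) differed by 0.25 and 0.17 (adjusted p = 0.06 and 0.16).

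D-type cyclins, which act upstream of Rb, went in both directions. Ccnd1 was at 10.24, 10.41, 10.55, 10.42 and 10.54 in controls and at 9.80, 9.52, 10.01, 9.90 and 9.87 in Rb KO, a fall of 0.61 ± 0.10 (adjusted p = 0.00088) with no overlap. Ccnd2 fell by 0.80 ± 0.14, from 12.19 ± 0.19 to 11.38 ± 0.27, also without overlap. Ccnd3 rose by 0.57 ± 0.05, from 9.26 ± 0.06 to 9.83 ± 0.06 (adjusted p = 6.5e-06). Of its 3 probe sets the other 2 differed by -0.16 and -0.04 without a call, and the mean of all 3 was not called (0.12, adjusted p = 0.0864). Cdk6 fell by 0.74 ± 0.12 and Cdk4 differed by 0.06. In Rb/Myc DKO crypts, Ccnd1 was at 8.90 ± 0.19, Ccnd2 at 13.27 ± 0.28 and Cdk6 at 10.05 ± 0.16.

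Of 29 measured genes that load and fire the replicative helicase, 20 were called higher and 0 lower (24 higher and 0 lower at an unadjusted limma p under 0.05), with a median difference of 0.37. Each of Mcm2 to Mcm7, the 6 subunits of the helicase, rose: Mcm6 by 0.88 ± 0.07, Mcm4 by 0.66, Mcm3 by 0.58, Mcm5 by 0.49, Mcm7 by 0.45 and Mcm2 by 0.42. Mcm6 went from 11.87, 11.50, 11.73, 11.72 and 11.74 to 12.53, 12.61, 12.65, 12.68 and 12.51, 1.84-fold, with groups apart (adjusted p = 2.2e-06). Of the loading factors, Cdc6 rose by 0.99 ± 0.09, Cdt1 by 0.74 and Orc6 by 0.68, as did Wdhd1, which ties the helicase to the polymerase, by 0.68. Orc1, the largest subunit of the origin recognition complex, differed by -0.06 ± 0.06 (adjusted p = 0.56). Without Rb KO 4 and 5, 16 members were called higher.

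E2F binding sites lie close to the start of many such genes, and the bases before the start are shown for 4 genes that rose and hold an E2F word, together with Ccne1, which rose more and holds none of the words searched. Of 20 genes called higher that were looked at one by one, 5 held a word in these bases and 15 did not, so the genes shown are not a fair sample. Sequences are the 250 bases before the annotated start from RefSeq on GRCm38.p6, and capitals mark E2F words. The words are TTTCCCGC, TTTCGCGC, TTTGCCGC and TTTGGCGC, searched on both strands, and they can overlap each other.
Mcm6: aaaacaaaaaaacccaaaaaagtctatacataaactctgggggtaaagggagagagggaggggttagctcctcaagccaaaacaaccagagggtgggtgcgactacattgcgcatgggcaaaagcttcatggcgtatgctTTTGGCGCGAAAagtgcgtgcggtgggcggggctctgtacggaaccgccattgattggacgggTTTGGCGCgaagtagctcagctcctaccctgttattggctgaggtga
Cdc6: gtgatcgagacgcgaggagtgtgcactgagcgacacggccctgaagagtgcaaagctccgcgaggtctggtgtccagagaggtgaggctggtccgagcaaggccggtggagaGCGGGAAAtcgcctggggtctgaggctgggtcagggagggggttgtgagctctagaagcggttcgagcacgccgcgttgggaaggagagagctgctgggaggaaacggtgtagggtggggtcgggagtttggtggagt
E2f7: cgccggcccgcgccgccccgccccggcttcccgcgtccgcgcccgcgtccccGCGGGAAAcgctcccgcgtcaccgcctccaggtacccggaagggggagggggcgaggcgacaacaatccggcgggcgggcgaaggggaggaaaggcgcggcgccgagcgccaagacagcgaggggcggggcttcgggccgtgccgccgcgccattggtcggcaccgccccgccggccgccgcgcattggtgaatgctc
Rbl1: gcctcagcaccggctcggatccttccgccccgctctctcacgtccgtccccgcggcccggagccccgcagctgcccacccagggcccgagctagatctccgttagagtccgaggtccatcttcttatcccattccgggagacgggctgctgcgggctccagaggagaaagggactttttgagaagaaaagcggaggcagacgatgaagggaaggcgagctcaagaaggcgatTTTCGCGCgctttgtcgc
Ccne1: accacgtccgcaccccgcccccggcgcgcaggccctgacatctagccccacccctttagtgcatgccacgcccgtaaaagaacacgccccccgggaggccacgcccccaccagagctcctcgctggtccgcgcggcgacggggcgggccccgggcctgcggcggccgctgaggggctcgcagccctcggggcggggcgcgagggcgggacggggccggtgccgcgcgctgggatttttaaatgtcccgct

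These stretches lie at chr1:128359706-128359955 on the minus strand for Mcm6, chr11:98907901-98908150 on the plus strand for Cdc6, chr10:110745189-110745438 on the plus strand for E2f7, chr2:157204535-157204784 on the minus strand for Rbl1 and chr7:38107491-38107740 on the minus strand for Ccne1. All precede the annotated transcript. Mcm6 has 3 matches, the first beginning 110 bases and the last 47 bases before the start, and the first overlaps the second. Cdc6 has 1 match, 138 bases before the start, E2f7 has 1, 198 bases before it, and Rbl1 has 1, 18 bases before it. A match is a description of letters and not a measured binding site.

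Over windows of 300 bases (250 before and 50 after the start), 456 of 10279 tested genes with a promoter in the table (4.44%) held an E2F word, as did 2.26% of all 32851 promoters. The share was 11.3% among the genes called higher (105 of 927), 2.06% among those called lower (8 of 388) and 3.83% among those not called. It was 52.2% in the licensing list (12 of 23 genes), 30.8% in the polymerase and fork list and 6.25% in the list of mitotic kinases, spindle and cytokinesis. None of the 12 promoters of the dNTP list held a word. The words TTTGAA and TTCGAA, searched on both strands and known as the cell cycle genes homology region (CHR) of genes active in G2 and mitosis. Overlaps among these words or with an E2F word were not removed. They were in 72.9% of the mitotic list (35 of 48) and 51.2% of the condensin and centromere list, against 16.5% of all tested genes.

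**Figure D2:**
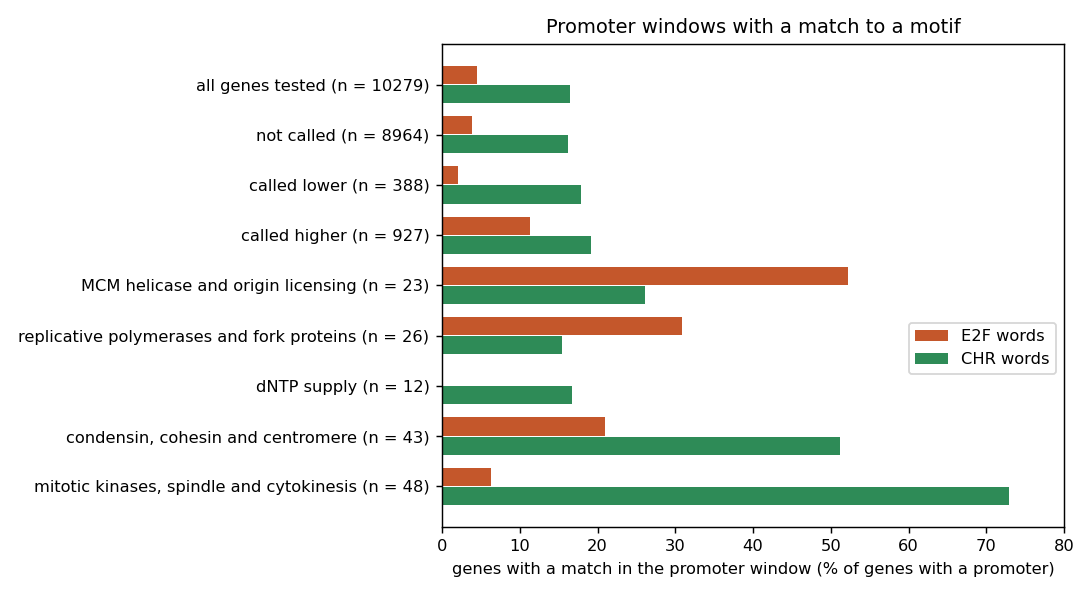
Share of genes whose promoter window of 300 bases holds an E2F word (orange) or a CHR word (green), in percent of the genes with a promoter in the table (n beside each set). E2F words are most frequent in the licensing list (52.2%) and CHR words in the mitotic list (72.9%).

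Replicative polymerases and fork proteins had 32 measured members, of which 25 were called higher and 0 lower (28 and 0 at an unadjusted limma p under 0.05), with a median of 0.36. Prim1, the primase that starts each Okazaki fragment, rose by 0.87 ± 0.07, Pola1, the catalytic subunit of polymerase alpha, by 0.66, and Lig1, the ligase that joins the fragments, by 0.62. Pcna, the sliding clamp, went from 13.46, 13.17, 13.31, 13.25 and 13.39 to 14.04, 14.01, 14.07, 14.07 and 14. Its Rb KO values lay close together and wholly above the controls (1.65-fold, adjusted p = 4.5e-06). Rpa1, which coats single-stranded DNA, rose by 0.71.

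Enzymes that supply dNTPs were called higher in 8 of 13 measured members and lower in 1, with a median of 0.29. Rrm2, the S phase subunit of ribonucleotide reductase, rose by 0.87 ± 0.10, from 10.67 ± 0.19 to 11.54 ± 0.05, and Rrm1, its large subunit, by 0.64. The salvage kinases Dck and Tk1 rose by 0.86 and 0.57. Rrm2b, the p53-induced alternative to Rrm2, fell by 0.20 ± 0.06 (adjusted p = 0.031). That fall was not called after median centring or without Rb KO 4 and 5.

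Repair and checkpoint genes were called higher in 13 of 36 measured members and lower in 0 (21 and 0 at an unadjusted limma p under 0.05), with a median of 0.19. Brca1, which acts in homologous recombination, rose by 0.72, Msh6 of mismatch repair by 0.63, Nbn of the double-strand break sensor by 0.49 and Usp1, a deubiquitinase of Pcna and Fancd2, by 0.42. Chromatin and histone chaperone genes were called higher in 13 of 21 and lower in 0 (18 and 0 unadjusted), with a median of 0.28. The histone acetyltransferase Hat1 rose by 0.73, the chaperones Asf1b and Chaf1b by 0.70 and 0.52, and Slbp, which binds the stem-loop of histone mRNA, by 0.67. Ezh2, the methyltransferase of Polycomb, rose by 0.52 and Dnmt1, which copies DNA methylation at the fork, by 0.44. Uhrf1, which brings Dnmt1 to the fork, rose by 0.52.

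Condensin, cohesin and centromere genes were called higher in 25 of 51 and lower in 0 (35 and 0 at an unadjusted limma p under 0.05), with a median of 0.27. Ncapg2 rose by 1.03 ± 0.11, from 8.38 ± 0.19 to 9.42 ± 0.12, and the kinetochore genes Cenpk, Spc25, Ndc80, Cenpl and Mis12 by 0.67, 0.61, 0.52, 0.47 and 0.34. Mitotic kinases, spindle and cytokinesis genes were called higher in 31 of 56 and lower in 0 (43 and 0 unadjusted), also with a median of 0.27. The spindle motor Kifc1 rose by 0.64, Nusap1 by 0.55, Kif4 by 0.47, Tpx2 by 0.46, Aurora A (Aurka) by 0.45, Plk1 by 0.33 and Bub3 of the checkpoint by 0.31. Mki67, the proliferation marker Ki-67, was at 12, 11.50, 11.82, 12.11 and 11.70 in controls and at 12.25, 12.29, 12.21, 12.46 and 12.26 in Rb KO, apart by a small margin (adjusted p = 0.0082). Foxm1 and Mybl2, which drive genes of G2 and mitosis, differed by 0.19 each without a call (adjusted p = 0.092 and 0.19). Without Rb KO 4 and 5 the mitotic list had 14 calls and the centromere list 13, and Mki67 was not called (0.42, adjusted p = 0.0575).

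**Figure D3:**
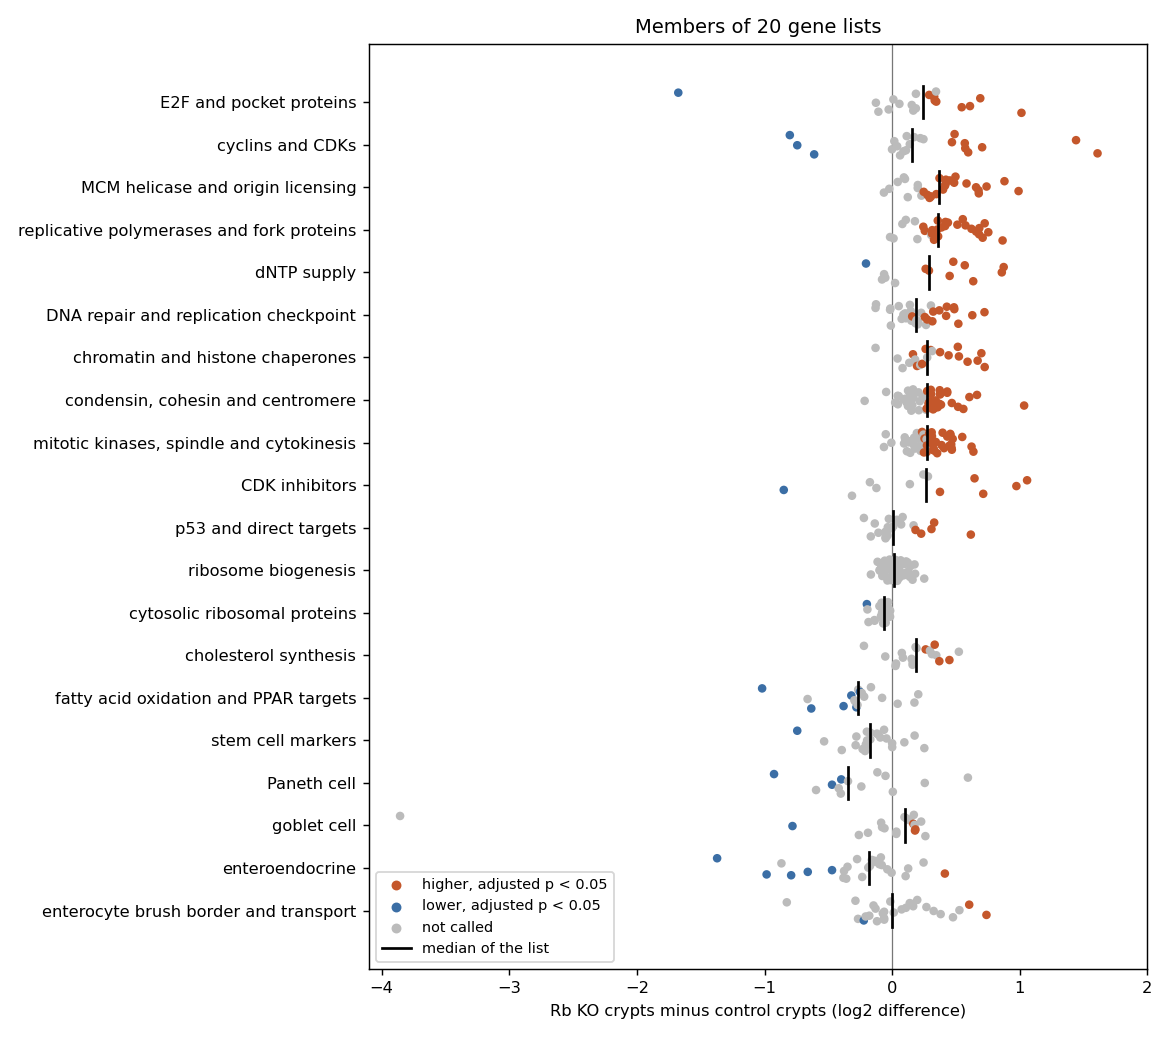
Log2 difference between Rb KO and control crypts for the measured members of 20 gene lists, with each point a gene, orange for genes called higher, blue for genes called lower and grey for the others, and black bars for list medians. Medians of the replication and mitotic lists lie to the right of 0. Ribosome biogenesis genes lie on both sides of it, and the 33 ribosomal protein genes lie below 0. The medians of the fatty acid oxidation, stem cell, Paneth and enteroendocrine lists also lie below 0.

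Of 12 inhibitors of cyclin-dependent kinases measured, 5 were called higher and 1 lower (6 and 3 at an unadjusted limma p under 0.05), with a median of 0.26. Cdkn1a (p21) was at 10.47, 10.78, 10.34, 10.12 and 10.35 in controls and at 11.49, 11.41, 11.49, 11.37 and 11.59 in Rb KO, 2.08-fold higher without overlap (adjusted p = 7.4e-05). Cdkn1c (p57) rose by 0.97 ± 0.13, Cdkn2c (p18) by 0.71 ± 0.09, Cdkn2d (p19) by 0.65 ± 0.09 and Cdkn3 by 0.38. Cdkn1b (p27) was called lower, by 0.85 ± 0.19, but control 1 (9.04) lay with the Rb KO arrays (9.04 to 9.28) and the other controls at 9.87 to 10.39. Without control 1 the fall was 1.09. The second Cdkn1b probe set differed by 0.15, and the mean of the pair was not called (-0.35, adjusted p = 0.114).

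Of 24 measured members of the list of p53 and its other targets, 5 were called higher (20.8%, against 8.65% of all genes tested) and 0 lower. At an unadjusted limma p under 0.05 the counts were 5 and 1, and the median difference was 0.00459. Pmaip1 (Noxa) rose by 0.62, Ppm1d by 0.33, Plk3 by 0.31, Tnfrsf10b by 0.23 and Polk by 0.18. Mdm2, a direct target and inhibitor of p53, was at 10.01 ± 0.10 and 9.98 ± 0.04. Of 22 apoptosis genes, 3 were called higher (13.6%, against 8.65% of all genes tested) and 1 lower. Bcl2l11 (Bim) rose by 0.58 ± 0.11, Ripk3 by 0.31 and Casp8 by 0.24, and the inhibitor Birc3 fell by 0.29. Plk3, Polk and Casp8 each lost their call when any of several arrays was left out.

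Of 13 members of the Myc and Max network, 0 were called higher and 1 lower (2 and 2 at an unadjusted limma p under 0.05), namely Mlxip, by 0.40. None of 58 ribosome biogenesis genes was called by limma (4 higher and 0 lower at an unadjusted p under 0.05), and their median was 0.02. Of 33 ribosomal protein genes, 0 differences were above 0, with a median of -0.06 and a range of -0.198 to -0.0151. Of these genes 0 were called higher and 1 lower (0 and 4 at an unadjusted limma p under 0.05), and in 3 all Rb KO arrays lay below the controls. Rpl14 fell by 0.20, a call lost without Rb KO 4 and 5 and after median centring. Of 29 genes in the list of translation factors and chaperonin, 3 were called higher (10.3%, against 8.65% of all genes tested) and 0 lower. These were Eif6 (0.22) and the nuclear transport genes Ranbp1 (0.24) and Ran (0.18), which the list also holds. Without Rb KO 4 and 5, 0 were called. Among 27 enzymes of nucleotide, one-carbon and polyamine synthesis, Mthfd2, the mitochondrial folate enzyme, rose by 0.67 and Ctps by 0.34. Phgdh was called lower by 0.36, but 1 of its other 3 probe sets differed by 0.48, in the opposite direction, without a call.

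Among lists of energy and lipid metabolism, those of fatty acid oxidation and cholesterol synthesis held more calls than those of glycolysis and oxidative phosphorylation. Over all genes tested, 8.65% were called higher and 3.61% lower. Fatty acid oxidation and PPAR targets were called lower in 6 of 19 members and higher in 0 (13 lower and 0 higher at an unadjusted limma p under 0.05), with a median of -0.27. Acot1 was at 9.22, 9.41, 9.61, 8.93 and 8.57 in controls and 7.95, 8.51, 7.66, 8.34 and 8.19 in Rb KO, apart by a narrow margin. Acot2 fell by 0.63, Cpt1a, the carnitine transferase of fatty acid entry into mitochondria, by 0.38, Acads by 0.32, Acadvl by 0.28 and Hadhb by 0.25. Without Rb KO 4 and 5, 3 of these were called. Cholesterol synthesis was called higher in 4 of 19 members and lower in 0 (Fdps by 0.45, Idi1 by 0.37, Pmvk by 0.33 and Ebp by 0.26), against 1 call without Rb KO 4 and 5. Of 17 glycolysis genes, 2 were called higher (11.8%, near the share of all genes), Eno3 by 0.80 and Pfkp by 0.43. Neither was called without Rb KO 4 and 5 (adjusted p = 0.0878 and 0.0929). Of 38 genes of oxidative phosphorylation 1 was called (2.63%), Ndufa8, higher by 0.15. That call was lost in 18 of 26 alternative settings, with a value of 0.09 without controls 1 and 4.

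Stem cell genes did not pass the test, with a single exception. Of 23 measured, 0 were called higher and 1, Cdk6, lower (1 and 4 at an unadjusted limma p under 0.05), with a median of -0.17. Lgr5, the receptor that marks crypt base stem cells, was at 9.35, 8.82, 9.36, 9.62 and 8.41 in controls and 8.96, 8.90, 8.80, 7.99 and 8.26 in Rb KO, overlapping groups that differed by -0.53 ± 0.28 (adjusted p = 0.24). Olfm4, Ascl2 and Smoc2 differed by -0.11, -0.06 and -0.12 without a call. Of 20 Wnt targets, 0 were called higher and 1, Ccnd1, lower (0 and 3 unadjusted). Of 19 Notch and secretory regulators, Klf4 rose by 0.50 and Gfi1 by 0.17, the latter in only some of the alternative settings, while Atoh1 (0.17) and Hes1 (-0.07) were not called. The mean level of 9 crypt markers ranged from 12.34 to 12.75 in controls and from 12.1 to 12.5 in Rb KO.

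Called Paneth markers were all lower, and called goblet markers were mixed. Of 13 Paneth genes, 3 were called lower and 0 higher (7 and 0 at an unadjusted limma p under 0.05), with a median of -0.35. Mptx1, a mucosal pentraxin, was at 13.40, 14.12, 13.94, 14.27 and 13.56 in controls and 13.37, 12.83, 13.16, 12.46 and 12.83 in Rb KO, a fall of 0.93 ± 0.18. The lowest control (replicate 1) lay just above the highest Rb KO array (also replicate 1). Reg4 and Ang4 fell by 0.47 and 0.40 with overlapping groups, and neither was called without control 1 or without Rb KO 4 and 5, where Ang4 differed by -0.16. Lyz1 (-0.05) and Mmp7 (-0.24) were not called. Of 20 goblet genes, Tff3, Zg16 and Tpsg1 were called higher by 0.17, 0.18 and 0.18, and Klk1 lower by 0.78, while Muc2, the main gel-forming mucin, differed by -0.26 (adjusted p = 0.37). Without control 1, 1 goblet gene was called higher. The calls of Klk1, Tpsg1 and Zg16 were lost in 11, 15 and 17 of 26 alternative settings, and that of Tff3 in 2.

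Several hormones of enteroendocrine cells were lower. Of 26 measured genes, 5 were called lower and 1 higher, with a median of -0.18. Ghrl, ghrelin, was at 9.52, 9.48, 9.63, 10.20 and 9.63 in controls and 8.65, 9.12, 8.54, 8.87 and 8.35 in Rb KO, 1.98-fold lower with groups apart (adjusted p = 0.0031). Gcg, which encodes glucagon-like peptides, was at 10.17, 10.18, 10.38, 8.71 and 8.89 against 8.20, 8.33, 8, 8.28 and 8.66. Controls 4 and 5 lay just above the Rb KO arrays and the other controls well above them (adjusted p = 0.0086). The incretin Gip fell by 0.79 ± 0.15 and Cck (cholecystokinin) by 0.66 ± 0.15. Reg4, which the Paneth list also holds, fell by 0.47, a call lost in 11 of 26 alternative settings. Sct (secretin) went the other way, from 9.56 ± 0.09 to 9.97 ± 0.14, with groups apart (adjusted p = 0.0016). Chga, chromogranin A of the secretory granules, differed by -0.38 ± 0.13 (adjusted p = 0.066), and neurotensin (Nts) by -0.87 ± 0.32 (0.094). In Rb/Myc DKO crypts Ghrl was at 8.71 ± 0.41, Gcg at 8.81 ± 0.48 and Gip at 12.23 ± 0.32. None of 16 tuft cell genes was called by limma (1 higher and 3 lower at an unadjusted p under 0.05), Dclk1 differing by -0.35.

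Genes of mature enterocytes did not shift as lists. Of 28 brush border and transport genes, Dpp4 (0.74) and Slc6a19 (0.60) were called higher and Slc34a2 (-0.22) lower, with a median of -0.000391. Alpi was at 13.91 ± 0.36 and 14.04 ± 0.12. Of 22 lipid absorption genes, Apoc3 alone was called. Dpp4, Slc6a19 and Apoc3 were not called without Rb KO 4 and 5.

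None of the 8 class II, 10 B and plasma cell, 15 mesenchymal, 5 endothelial and blood or 7 neural and glial genes was called by limma, with 0 higher and 4 lower, 1 and 0, 0 and 0, 1 and 0, and 0 and 0 at an unadjusted p under 0.05. Of 17 genes of T cells and intraepithelial lymphocytes, 0 were called higher and 1 lower, Cd244a, by 0.33, a call lost without controls 1 and 4 or Rb KO 4 and 5. Of 13 exocrine pancreas genes, 1 was called higher, Zg16, which the goblet list also holds. The mean level of the pancreas list was 10.67 on control 1 and 10.35 on Rb KO 3, against 8.53 to 9.33 on the other control and Rb KO arrays, and its part in the results was not tested. The mean level of the class II list ranged from 8.486 to 9.618 in controls and from 8.066 to 9.01 in Rb KO. Of 19 macrophage, granulocyte and mast cell genes, the mucosal mast cell proteases Mcpt1 and Mcpt2 were called lower. Mcpt1 was at 8.69, 11.73, 10.96, 10.04 and 11.10 in controls and 9.21, 8.52, 8.31, 8.37 and 7.70 in Rb KO, with control 1 within the Rb KO range. It fell by 2.09 ± 0.47 (adjusted p = 0.0084) and Mcpt2 fell by 1.85 ± 0.47. Without Rb KO 4 and 5 neither was called (adjusted p = 0.0664 and 0.101), and without control 1 the falls were 2.54 and 2.28. The mast cell genes Mcpt4 and Cpa3 differed by -0.83 and -0.74 (adjusted p = 0.055 and 0.09). The mean level of that list, mast genes included, ranged from 7.426 to 7.821 in controls and from 7.227 to 7.781 in Rb KO. The part of mast cell RNA in other results was not tested.

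**Figure D4:**
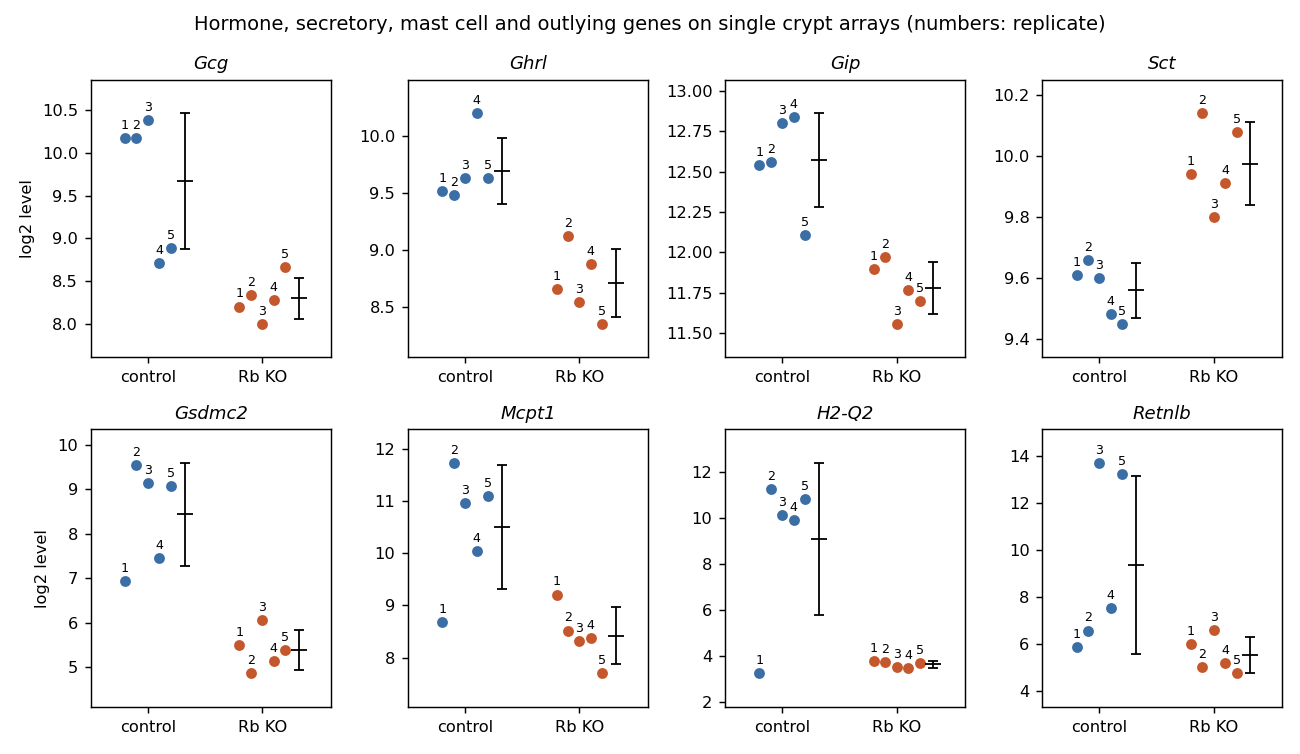
Log2 levels of 4 hormone genes (top row) and of Gsdmc2, Mcpt1, H2-Q2 and Retnlb (bottom row) on each control and Rb KO crypt array, numbered by replicate, with the mean and SD as black bars and vertical scales that do not start at 0. Control 1 lies with or nearest to the Rb KO arrays for Gsdmc2, Mcpt1 and H2-Q2, and Retnlb is high on controls 3 and 5 only.

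In a few genes with large differences, control 1 lay with the Rb KO arrays. These genes were chosen after their values were seen. H2-Q2, of the class I histocompatibility locus, was at 3.25 on control 1, at 11.26, 10.13, 9.91 and 10.84 on the other controls and at 3.80, 3.74, 3.51, 3.46 and 3.70 in Rb KO. Trim30d was at 10.17 on control 1, at 4.51 to 5.18 on the other controls and at 9.71 to 10.42 in Rb KO. Hddc3 was at 6.93 on control 1, at 9.46 to 9.96 on the others and at 6.85 to 7.19 in Rb KO. Rbp7 was at 4.92 on control 1, at 9.18 to 10.64 on the others and at 5.10 to 5.72 in Rb KO, and Stk39 and Fah also had control 1 within the Rb KO range. Whether genetic background has a part in the differences of these genes, or in the fall of Nnt, was not tested. The part of control 1 in the called genes was tested only by leaving it out, which gave 1711 calls, 1387 of them among the 1562. Retnlb, a goblet cell product, was at 13.71 and 13.23 on controls 3 and 5, at 5.87 to 7.52 on the other controls and at 4.78 to 6.62 in Rb KO, and was not called (adjusted p = 0.22).

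Stress and clock genes were higher on some arrays. Of 25 immediate early and heat shock genes, 5 were called higher and 0 lower (11 and 0 at an unadjusted limma p under 0.05), with a median of 0.22. Dusp1 was at 6.79, 6.86, 6.19, 7.03 and 5.95 in controls and at 7.76, 7.75, 8, 7.52 and 7.78 in Rb KO, apart. Jun rose by 0.43, Jund by 0.25 and the chaperone Hsp90aa1 by 0.43. Jun was not called without any 1 of controls 3 and 5 and Rb KO 1 and 3, nor Jund without controls 1 and 4 or with the mean of its probe sets (0.10, adjusted p = 0.213). Hspa1a, the inducible chaperone Hsp70, varied from 6.05 to 10.73 in controls and was at 11.32, 11.64 and 11.95 on Rb KO 1 to 3 and at 5.91 and 5.64 on Rb KO 4 and 5. Of 18 clock genes, only Cry1 was called, higher by 0.92 ± 0.18 and highest on Rb KO 4 and 5 (7.72 and 7.81, against 6.65 to 7.02 on the other Rb KO arrays and 6.02 to 6.43 in controls). Without Rb KO 4 and 5 its rise was 0.56. Per2 was also highest on those arrays (8.47 and 8.51) and was not called (adjusted p = 0.065).

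The effect of Rb loss was then compared with that in villi, as the difference of the differences within each tissue. Of the 12736 genes, 2001 (15.7%) had effects that differed between tissues, 1017 (7.99%) with a lower value in crypts and 984 (7.73%) with a higher value. With the animal as a random block there were 2952. The splits and tissue contrasts that follow are from the fit without that block, which called fewer genes. A difference not called there may be called with the block. Of the 1102 genes called higher in crypts, 407 had an effect below that in villi, 82 one above it and 613 no called difference. Of the 460 called lower, 26 had an effect further below that in villi, 58 an effect above it and 376 no called difference.

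Lig1 was higher by 0.62 in crypts and by 2.77 in villi, a difference of -2.14 ± 0.14 (limma interaction, SE, adjusted p = 2.7e-11). Prim1 was higher by 0.87 against 3.75, Mcm4 by 0.66 against 2.57, Pcna by 0.73 against 2.22 and Dek, a chromatin protein, by 0.51 against 2.23. All 5 had adjusted p-values of 3.6e-10 or less. The interaction was called below 0 for 24 of 29 licensing genes, 30 of 32 polymerase and fork genes, 40 of 51 centromere and condensin genes and 43 of 56 mitotic genes. List medians in villi were 1.5, 1.56, 1.15 and 1.44. The effect in crypts minus that in villi was -2.63 for E2f7, -1.95 for Ccne2, -2.65 for Tcf19 and -1.02 for Ccne1, each of them called.

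The CDK inhibitors were less uniform between tissues. Cdkn1a was higher by 1.06 in crypts and 0.87 in villi (difference 0.19 ± 0.17, adjusted p = 0.5), and Cdkn2d by 0.65 in each. Cdkn2c was higher by 0.71 against 2.29, a called difference of -1.58. For Ccnd1 and Ccnd2 the differences between tissues, -0.10 ± 0.29 and -0.34 ± 0.28, were not called. Rbl2 was lower by 0.93 in villi and by 0.13 in crypts, a called difference of 0.81.

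Some genes had the larger effect in crypts. Enpp3 was higher by 1.71 in crypts against 0.05 in villi (difference 1.65 ± 0.30, adjusted p = 0.00038). Zfp874a was higher by 1.14 against 0.32, and Hes2 by 1.03 against 0.19. In control crypts Zfp874a and Hes2 averaged 5.55 and 5.60, below the filter level of 6.201 set on crypt arrays. Zfp874a was at 5.03 in control villi and 5.35 in Rb KO villi. For Zfp874a a smaller effect in villi cannot be told from a level too low to show one. For Ces1g and Apoc3 the effect in crypts exceeded that in villi by 1.28 and 0.99. Wbp2, Adamtsl5, Aamdc and Podn, with the smallest p in that direction beside Zfp874a, were lower in villi by 0.52, 0.60, 0.45 and 0.91 and differed in crypts by 0.27, 0.27, 0.17 and 0.01, of which Wbp2 and Adamtsl5 were called. Without controls 1 and 4 neither was called (0.24 and 0.17, adjusted p = 0.0813 and 0.182), and the call of Adamtsl5 was lost in 16 of 26 alternative settings. Sct was higher by 0.41 in crypts and lower by 0.38 in villi, a called difference of 0.80. The falls of Ghrl, Gcg, Gip and Cck were not called different from those in villi (adjusted p = 0.88, 0.67, 0.29 and 0.75).

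**Figure D5:**
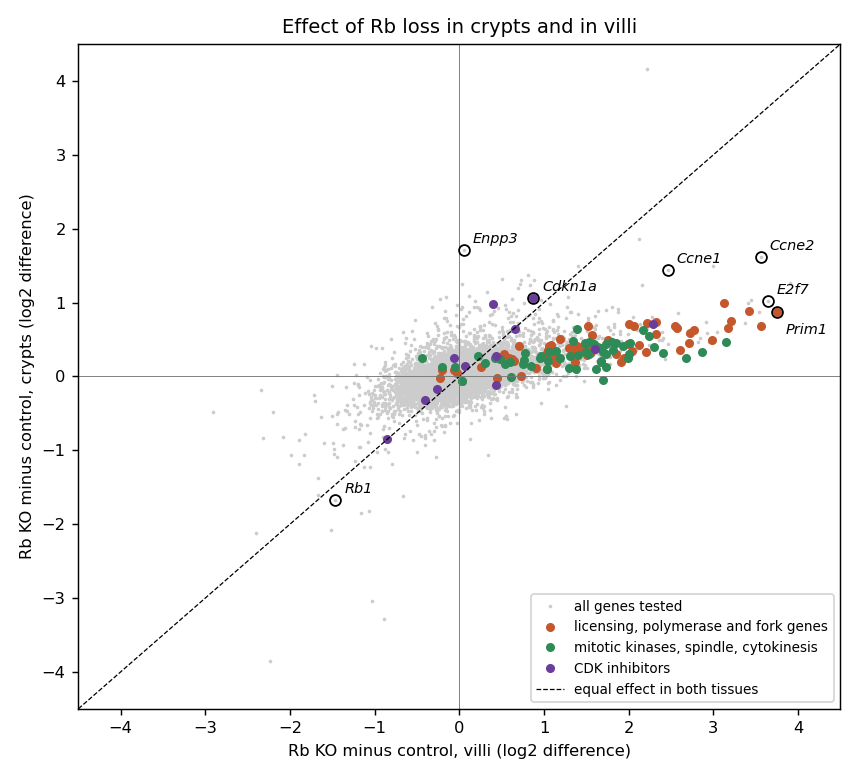
Log2 difference between Rb KO and control arrays in villi (horizontal) and in crypts (vertical) for all 12736 genes tested (1 lies outside the axes), with list members coloured and 7 genes circled and named. Most licensing, polymerase and mitotic genes lie below the dashed line of equal effect (interaction called below 0 for 24 of 29, 30 of 32 and 43 of 56), while Cdkn1a and Rb1 lie near it and Enpp3 above it.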

How the data were processed

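Levels are the authors' deposited log2 values of 45101 probe sets on 30 arrays, and normalization is not given in the sources used here. Of these probe sets, 34958 have 1 gene symbol, 932 several and 9211 none, and only the first were used. Each gene was read from its probe set of highest mean level over the 15 crypt arrays, giving 18194 genes, and 12736 of them passed the filter on low levels (30th percentile of the gene means over crypt arrays, 6.201). The 15 crypt arrays entered 1 linear model of the 3 genotypes in limma 3.58.1 (R 4.3.3), and all 30 arrays in 6 groups entered that of the difference between tissues, with Benjamini-Hochberg adjustment over all genes tested, and calls at an adjusted p of 0.05. Errors of differences are standard errors. Tissues were taken as normalized separately (array medians 6.67 to 6.73 in crypts, 6.28 to 6.34 in villi), so they were compared only through the difference of effects within each.

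Genes named are the 15 largest rises and falls without overlap, up to 4 members of each list, 5 genes in each direction of the tissue contrast and a fixed list of key genes. Other names, among them Cdt1, Cdc25b, Skp2, Rpa1, Spc25, Ndc80, Kifc1, Aurka, Plk1, Ezh2, Dnmt1, Uhrf1, Acot2, Hadhb, Mcpt4, Cpa3, Hspa1a, Per2 and Rrm2b, were chosen after their values were seen. The members and lists were chosen with earlier results of these data known. Villi and crypts of 1 number correlated between 0.299 and 0.585, 10 of 10 best with their own, so numbers were taken as animals in the random block. On simulated data with 200 of 12736 genes changed, the crypt comparison recovered 91% of 1.5-fold and 99% of 2-fold changes with 10 false calls. The simulated noise was normal and independent between genes and arrays, with no array apart from its group. In the data 12.3% of genes were called and control 1 stood apart. These rates check that the fit runs correctly and do not give its sensitivity on the data. Alternatives covered probe set choice, filter, normalization, weights, block, sex, thresholds and left-out arrays. Promoters come from RefSeq on GRCm38.p6.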

Additional observations from a re-analysis of the deposited data

Results flagged for a closer look

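A single array lay far from the other 4 of its group in 30 of 372 groups of 5 arrays looked at over the 186 genes named (8.06 percent), by a rule that chance meets in about 5 percent of groups. On control 1 the log2 level was 6.78 for Fah, 3.25 for H2-Q2, 6.93 for Hddc3, 4.92 for Rbp7 and 10.17 for Trim30d. On control 2 the log2 level was 9.19 for Asf1b, 11.15 for Mcm5 and 10.41 for Prim1. On control 3 the log2 level was 11.26 for Tk1. On control 4 the log2 level was 7.36 for Ces1g, 10.20 for Ghrl and 14.21 for Olfm4. On control 5 the log2 level was 8.76 for E2f3 and 6.81 for Pcdh19. On Rb KO 2 the log2 level was 9.80 for Nnt. On Rb KO 3 the log2 level was 9.87 for E2f5 and 9.18 for Kifc1. On Rb KO 4 the log2 level was 12.04 for Ccna2, 11.97 for Cdk1, 11.10 for Mcm3, 11.10 for Plk1, 13.17 for Ranbp1, 11.58 for Rrm1 and 9.66 for Tpx2. On Rb KO 5 the log2 level was 13.10 for Apoc3, 8.68 for Ascl2, 9.78 for E2f6, 11.00 for Lig1, 7.32 for Mboat1 and 11.04 for Mcm4. Of these, 7 were on Rb KO 4, 6 on Rb KO 5 and 5 on control 1.

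The effect of Rb loss in crypts minus that in villi, tested as an interaction in limma, had an adjusted p under 0.05 for 87 of the genes named, below 0 for 72 and above 0 for 15. This quantity (log2) was negative where the effect was lower in crypts. Among E2F and pocket protein genes it was -0.93 for E2f1, -1.47 for E2f2, -0.55 for E2f6, -2.63 for E2f7, -1.95 for E2f8, -0.66 for Rbl1 and -1.15 for Tfdp1. Among cyclins and kinases it was -1.64 for Ccna2, -1.60 for Ccnb2, -1.02 for Ccne1, -1.95 for Ccne2, -1.11 for Cdc25b, -2.48 for Cdk1, -1.57 for Cdk2, -0.83 for Cdk4 and -1.24 for Skp2. Among CDK inhibitors it was -1.58 for Cdkn2c and -1.22 for Cdkn3. Among licensing genes it was -2.13 for Cdc6, -1.58 for Cdt1, -1.70 for Mcm2, -2.14 for Mcm3, -1.91 for Mcm4, -2.49 for Mcm5, -2.53 for Mcm6, -2.26 for Mcm7, -1.86 for Orc6 and -0.85 for Wdhd1. Among polymerase and fork genes it was -2.14 for Lig1, -1.49 for Pcna, -2.51 for Pola1, -2.89 for Prim1 and -1.30 for Rpa1. Among dNTP genes it was -1.73 for Dck, -1.58 for Rrm1, -2.66 for Rrm2 and -2.12 for Tk1. Among repair genes it was -2.65 for Brca1, -1.46 for Msh6, -2.32 for Uhrf1 and -0.67 for Usp1. Among chromatin genes it was -1.34 for Asf1b, -1.16 for Chaf1b, -2.02 for Dnmt1, -1.12 for Ezh2, -1.49 for Hat1 and -0.90 for Slbp. Among centromere and condensin genes it was -1.93 for Cenpk, -2.41 for Ncapg2, -0.71 for Ndc80 and -1.78 for Spc25. Among mitotic genes it was -1.56 for Aurka, -0.47 for Bub3, -0.87 for Kif4, -2.68 for Mki67, -1.68 for Nusap1, -1.17 for Plk1 and -1.07 for Tpx2. Among the other genes named it was -1.25 for Ctps, -1.72 for Dek, -1.48 for Eno3, -2.02 for Gsdmc2, -0.83 for Hsp90aa1, -0.92 for Mthfd2, -0.36 for Ndufa8, -0.33 for Polk, -0.69 for Ppm1d, -1.40 for Rab30, -1.01 for Ran, -1.20 for Ranbp1, -0.64 for Ripk3 and -2.65 for Tcf19. The quantity was above 0, at 0.63 for Aamdc, 0.47 for Acads, 0.87 for Adamtsl5, 0.99 for Apoc3, 0.70 for Birc3, 1.28 for Ces1g, 1.65 for Enpp3, 0.43 for Gfi1, 0.84 for Hes2, 0.91 for Podn, 0.81 for Rbl2, 0.80 for Sct, 0.70 for Slc6a19, 0.79 for Wbp2 and 0.82 for Zfp874a.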

How the results depend on the processing

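Of the 1562 genes called, 1053 to 1533 were shared with each alternative that changed the probe set, filter, normalization, weights or covariates. The count fell to 721 (563 higher, 158 lower) at an adjusted p of 0.01 and to 38 (20 and 18) with a 2-fold change as well, and that of the difference between tissues to 940 and 247. Without Rb KO animals 4 and 5 there were 874 (665 and 209), and 1101 between tissues. Leaving out 1 array at a time gave 1127 to 1711 calls, 818 to 1207 higher and 298 to 535 lower, and 1544 to 2108 between tissues, with 298 lower without Rb KO 3. The cause of these changes was not tested. Quantile normalization gave 970 higher and 665 lower, and median centring moved the median of all genes to 0.0193. E2f5 turned from -0.11 to 0.22 with the mean of its probe sets and to 0.37 with the probe set of largest spread, and Phgdh from -0.36 to 0.48 with that probe set.

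With the replicate number as a block there were 1541 calls, 1392 of them among the 1562, and 2273 between tissues. Control and Rb KO crypts of the same number correlated between -0.213 and 0.111, and 0 of 5 pairs correlated best with their own number, so the numbers were not taken to pair the groups. The mean crypt marker level as a covariate, an alternative chosen after seeing the data, gave 1371 calls. Of these, 1053 were among the 1562, the fewest of the alternatives in probe set, filter, normalization, weights or covariates. Among 196 genes followed, of which 155 were called, 29 calls were lost and 4 gained with it. Arrays carry no read depth, and their number limits the precision.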
